A study of Sisymbrium orientale with 12 samples.

Results

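Transcripts for the enzymes of the Calvin cycle and of photorespiration were examined in leaves of the weed Sisymbrium orientale, or Indian hedge mustard, which belongs to the same family as Arabidopsis. The members were 35 Arabidopsis loci, 21 of the Calvin cycle and 14 of photorespiration. A contig, which is an assembled Sisymbrium transcript, counted toward a member when the deposited annotation gave that locus as its closest match. Contigs were present for 32 of the 35 loci, 18 of the Calvin cycle and 14 of photorespiration, and these held 69 of the 33277 contigs and 32 of the 16386 loci in the table. RBCS1B and RBCS2B, which encode Rubisco small subunits, and PGK2, a phosphoglycerate kinase, had no contig of their own. The RBCS B genes of Arabidopsis are nearly identical to each other, so RBCS3B here may stand for more than 1 gene of this species. Values were summed over the contigs of a locus, and all 32 members passed the filter on low values that left 16051 loci for testing.

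The study compared lines that resist the herbicide 2,4-D, a synthetic auxin, with lines that are susceptible to it, and its title links the resistance to a shortened auxin repressor, IAA2. Leaf RNA was taken without herbicide treatment from the youngest fully opened leaf of plants with 4 leaves, grown at 25 °C by day and 20 °C by night with 16 h of light. In cross B, at the F3 generation, RP6 and RP8 were the 2 resistant lines, and SP3, SP7, SP9 and SRP1 were the 4 susceptible ones. In cross A, at the F4 generation, R202, R206 and R221 were the 3 resistant lines, and S205, S207 and S242 were the 3 susceptible ones. Each line gave 1 library, so resistant against susceptible is 5 libraries against 7, and cross B against cross A is 6 against 6. Cross and generation cannot be told apart. How many plants a library held is not stated, and the p-values below measure only the spread between these libraries. Library values are given in the order in which the lines are named here.

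In the Calvin cycle, Rubisco fixes CO2 onto ribulose bisphosphate, the product is reduced to triose phosphate with ATP and NADPH, and most of the triose phosphate is used to regenerate the acceptor. Rubisco also accepts O2, and photorespiration salvages the phosphoglycolate that this makes through reactions in the chloroplast, the peroxisome and the mitochondrion. Both sets of enzymes are abundant in green leaf cells, and most are encoded in the nucleus. The gene roles given below are those of the Arabidopsis genes.

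Depth was high and even, with 100976475 (R206) to 145936928 (RP8) reads recovered per library. The unit is CPM, reads relative to a library size that the authors scaled, and the columns added up to between 915639 and 1180044. Markers of green mesophyll were present at 6 of 6, summing to 7756 to 13135 CPM in resistant lines and 8859 to 17637 CPM in susceptible lines. Markers of roots (0 of 5) and seeds (0 of 4) had no contig, and those of flowers and pollen had 1 of 5, at no more than 3.31 CPM. Libraries S205 and SP9 stood apart from the other 10 in the members' values, so the main contrasts, the lists and the ratios that are described are given with and without them. In the same 2 libraries the mesophyll markers summed to 14512 CPM (S205) and 17637 CPM (SP9), against 7756 to 13718 CPM in the other 10. In SP9 each of the 6 markers lay above the other 10. In S205 only PSBO1 (5601 CPM), PSAD1 (2131 CPM) and PSAE1 (1085 CPM) did. LHCB1.1 (3796 CPM), LHCB2.1 (486 CPM) and LHCB4.1 (1413 CPM) lay inside the range of the other 10 in S205. Vascular markers (4 of 4) summed to 340 CPM in S205 and 343 CPM in SP9, against 146 to 243 CPM in the other 10. SUC2 (151 and 92.3 CPM) and APL (21 and 19.7 CPM) lay above the other 10 in both libraries. IRX3 and XCP1 did so in SP9 (46 and 185 CPM) but not in S205 (31.2 and 137 CPM). Epidermal markers (4 of 4) summed to 213 CPM and 290 CPM, against 369 to 733 CPM, but did not move as a set. PDF1 was low (63.5 and 89.2 CPM, against 167 to 517 CPM), while CER6 was high (28.1 and 35 CPM, against 13.2 to 26 CPM). ATML1 (39 and 35.3 CPM) lay inside the range of the other 10, and LTPG1 lay below it in S205 (82 CPM) but inside it in SP9 (130 CPM). Markers of dividing cells (5 of 6) summed to 103 CPM and 97.8 CPM, against 100 to 243 CPM. KNOLLE (25 and 33.4 CPM) and MAD2 (7.42 and 7.82 CPM) lay below the other 10 in both libraries. The CYCB1 marker (11.1 and 11.4 CPM) and the CYCB3 marker (7.29 and 8.38 CPM) did so too. The CDKB2 marker (52.6 and 36.8 CPM) lay inside the range of the other 10. Guard cell markers (4 of 4) lay at 104 CPM and 69.6 CPM, inside the range of 60.1 to 107 CPM in the other 10. Markers of leaf senescence (2 of 4, with SAG12 absent) summed to 69.5 CPM in S205 and 54.4 CPM in SP9, against 36.1 to 55.3 CPM. Most of this sum was SGR1 (68.1 and 52.9 CPM), while SAG21 (1.42 and 1.49 CPM) lay inside the range of the other 10. The part of these cell types in the members' values was not tested. In bulk tissue, fewer cells of a type and less RNA per cell cannot be told apart.

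The members moved together from library to library. S205 was the highest of the 12 libraries in all 32 members, against 24.5% of all loci tested, and SP9 was the second highest in all 32, a pairing found in 12.6% of all loci. The lowest library was R202 in 18 members, S242 in 13 and SP7 in 1, and R202 or S242 was lowest in 23.7% of all loci. S205 lies in cross A and SP9 in cross B, and both are susceptible, while R202 is resistant and S242 susceptible, so the extremes do not follow 1 label. With plain CPM, where each column is divided by its own sum, S205 was highest in 31 members and was followed by SP9 in 29. The shares of all loci given above are for the authors' scaled values and were not computed on plain CPM.

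**Figure D1:**
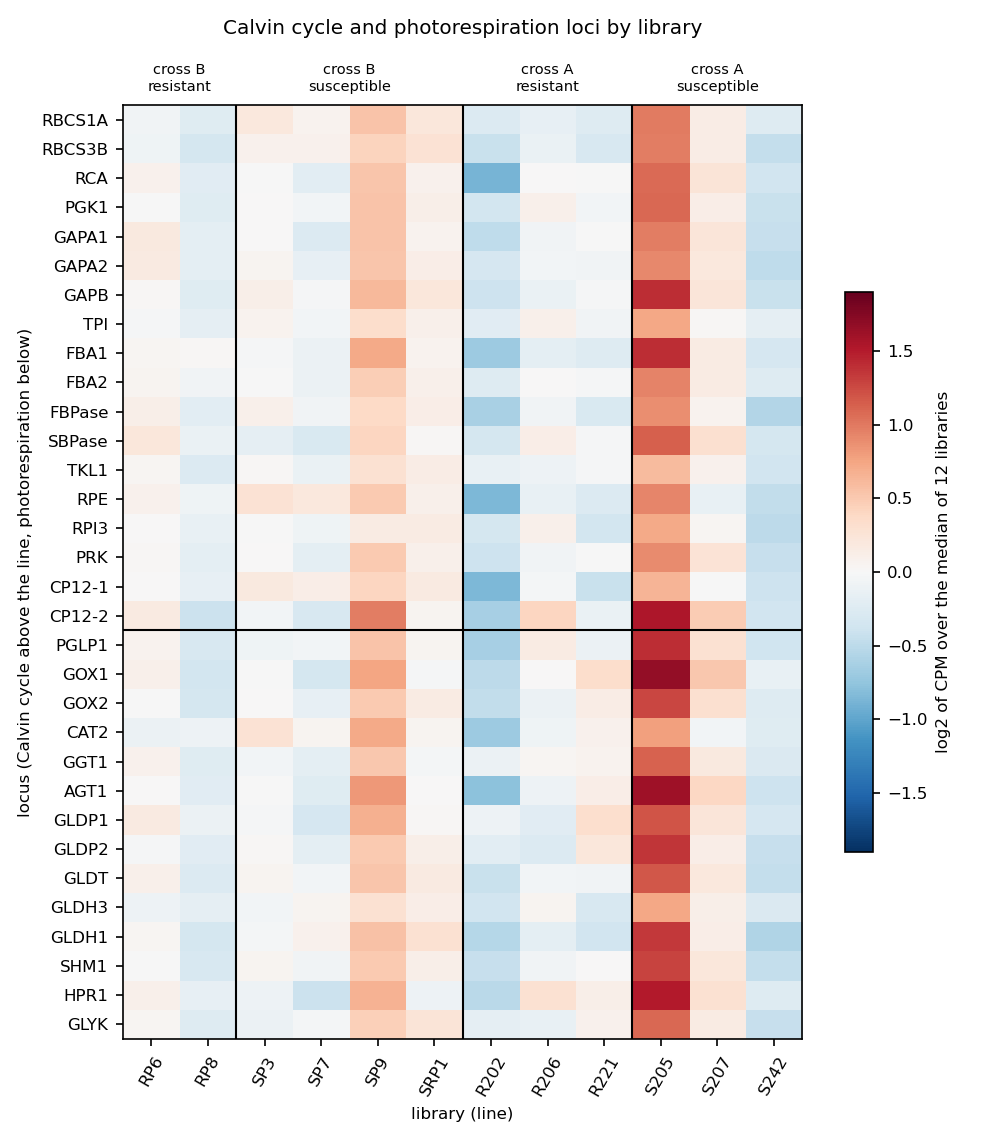
Level of each of the 32 loci (rows) in each of the 12 libraries (columns), as log2 of the CPM over the locus median of the 12 libraries. S205 has the darkest red cell in every row and SP9 the next, and the lowest cell of a row is in R202 or S242 in 31 of 32 rows.

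Together the members took 14.4% of the values in S205 and 10.9% in SP9, against 6.85% to 9.30% in the other 10 libraries. The 2 Rubisco small subunit loci were the largest of 3 sets in every library, at 6.62% in S205 and 5.17% in SP9, against 3.39% to 4.60%. The share of the 14 photorespiration loci was 2.72% in S205 and 1.86% in SP9, against 1.11% to 1.57%. The other 16 Calvin cycle loci took 5.07% and 3.90%, against 2.35% to 3.39%. Over all resistant lines the members' share averaged 7.75% ± 0.625 (SD, n = 5), and over all susceptible lines 9.72% ± 2.36 (SD, n = 7). The 2 groups overlapped, since S242 (7.19%) lay below 4 of the 5 resistant lines.

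**Figure D2:**
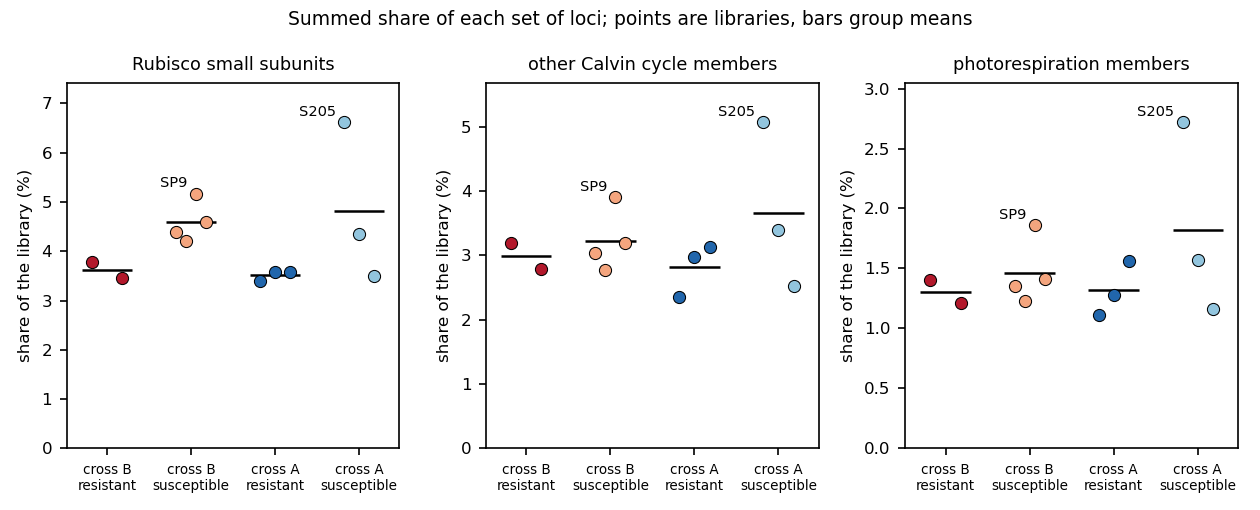
Summed share of each library (percent, vertical axes from 0) for the Rubisco small subunits, the other Calvin cycle loci and the photorespiration loci; each point is 1 library and each bar a group mean. S205 lies at 6.62%, 5.07% and 2.72%, above every other library in all 3 panels.

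The size of the excess differed between members. S205 over the median of the other 5 cross A lines ran from 1.63 (TKL1) to 3.26 (GLDH1), with a median of 2.31, against a median of 1.01 over all loci. It was at least 2 in 26 of the 32 members, against 6.57% of all loci. The median was 2.16 in the Calvin cycle and 2.58 in photorespiration. SP9 over the median of the other 5 cross B lines ran from 1.13 (RPI3) to 2.03 (CP12-2), with a median of 1.43, against 1.0 over all loci. On plain CPM these ratios were smaller, with medians of 1.82 (1.34 to 2.78) for S205 and 1.31 (1.05 to 1.89) for SP9. Plain CPM rescales every locus of a library by the same factor, so this change is not particular to the members. The medians of all loci on plain CPM were not computed. Without the 2 libraries, the highest of the other 10 over the lowest was 1.25 (TPI) to 2.25 (AGT1), with a median of 1.61, against 1.52 over all loci.

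**Figure D3:**
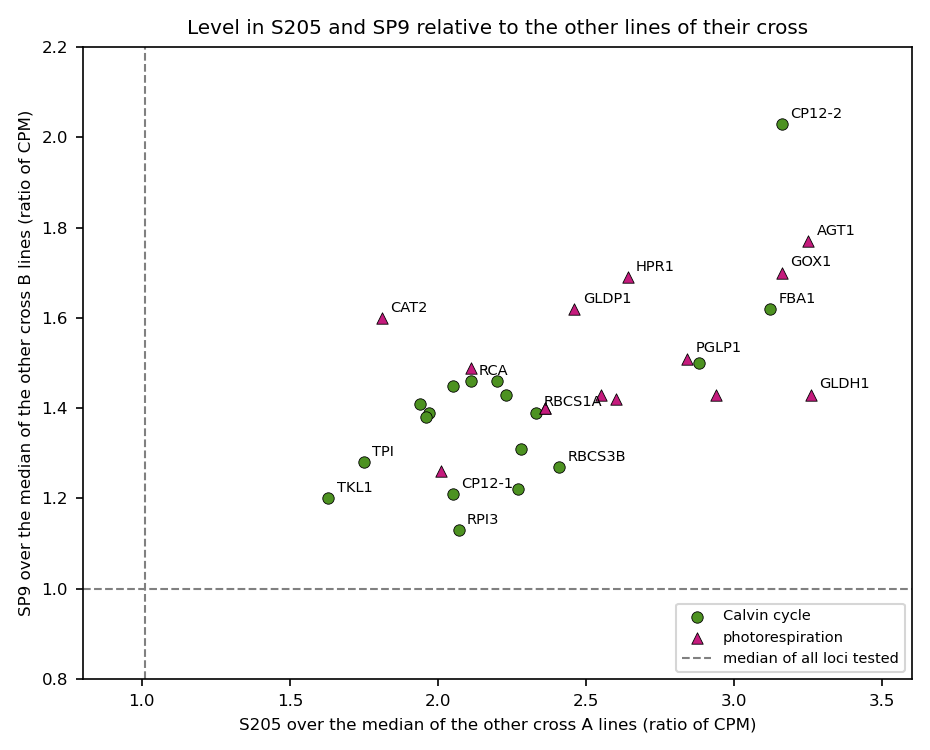
Ratio of S205 to the median of the other cross A lines (horizontal axis) and of SP9 to the median of the other cross B lines (vertical axis), both as ratios of CPM, with 1 point per locus and dashed lines at the medians of all loci tested. All 32 points lie above both lines, with CP12-2 at 3.16 and 2.03 and TKL1 at 1.63 and 1.2.

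Rubisco came first in level. Per kilobase of contig, RBCS1A (AT1G67090) had a median of 21926 CPM per kb and RBCS3B one of 19807 CPM per kb, followed by RCA (AT2G39730), the activase that frees Rubisco of inhibitory sugar phosphates, at 3717 CPM per kb. No other member passed the 2226 CPM per kb of FBA2. Each contig was divided by its own length before summing, so a locus assembled in pieces can rank too high per kilobase. RBCS3B (AT5G38410) had 14168 and 11823 CPM in resistant lines of cross B, against 15819, 15922, 20137 and 18038 CPM in its susceptible lines. In cross A it had 11168, 13659 and 12124 CPM in resistant lines, against 29229, 16424 and 10992 CPM in susceptible lines. The groups were apart in cross B, while in cross A the susceptible lines held both the highest and the lowest library. RBCS1A averaged 21680 ± 1249 CPM in resistant lines (SD, n = 5) and 30928 ± 9090 CPM in susceptible lines (SD, n = 7), and its ratio to RBCS3B stayed between 1.60 and 1.91 in all 12 libraries. RCA was lowest in R202 (3668 CPM) and highest in S205 (14228 CPM).

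In the reduction phase, PGK1 makes bisphosphoglycerate, and GAPA1, GAPA2 and GAPB are subunits of the chloroplast glyceraldehyde-3-phosphate dehydrogenase. GAPA2 was the most abundant of these per kilobase (1934 CPM per kb), ahead of GAPA1 (1019), PGK1 (908) and GAPB (832 CPM per kb). GAPB stood out in S205, at 3900 CPM, where it was 2.88 times the median of the other cross A lines, against 2.05 for GAPA1 and 1.97 for GAPA2. GAPB averaged 1331 ± 153 CPM in resistant lines (SD, n = 5) and 1956 ± 924 CPM in susceptible lines (SD, n = 7), and GAPA2 averaged 2935 ± 379 CPM and 3646 ± 1192 CPM in the same groups. PGK1 ranged between 2117 and 2890 CPM in resistant lines and between 2006 and 5718 CPM in susceptible lines.

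The 9 regeneration loci cover the steps that rebuild the CO2 acceptor. FBA2, a plastid aldolase, led them per kilobase (2226 CPM per kb), ahead of the transketolase TKL1 (1260) and the second aldolase FBA1 (1024 CPM per kb), and TPI, the triose phosphate isomerase, was lowest (344 CPM per kb). FBA1 rested on 2 contigs of 610 and 757 bases, so its level per kilobase may be too high. FBA2 and TKL1 had 1 contig each. TPI and TKL1 varied least, with an SD over 12 libraries of 0.26 each on the log2 scale, and FBA1 varied most in this group (0.53). FBA1 had 704 and 696 CPM in resistant lines of cross B, against 425, 607 and 582 CPM in resistant lines of cross A, and reached 1815 CPM in S205. The phosphatases FBPase and SBPase, whose steps are irreversible, averaged 802 ± 146 and 1237 ± 183 CPM in resistant lines (SD, n = 5), against 1049 ± 334 and 1475 ± 616 CPM in susceptible lines (SD, n = 7). PRK, the kinase that makes ribulose bisphosphate, ranged between 1194 and 1592 CPM in resistant lines and between 1164 and 2921 CPM in susceptible lines. RPI3, the ribose phosphate isomerase, had the smallest excess in SP9, at 725 CPM against 591 to 725 CPM in the other cross B lines.

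RPE (AT5G61410), the ribulose phosphate epimerase, had the highest log2 difference of all members toward cross B. In resistant lines it had 537 and 483 CPM in cross B, against 283, 462 and 425 CPM in cross A. In susceptible lines it had 615, 584, 719 and 547 CPM in cross B, against 971, 460 and 368 CPM in cross A. The crosses overlapped, since S205 of cross A was the highest library. Every other cross A library lay below every cross B library, a pattern that was not counted over all loci. The log2 difference, cross B over cross A, was 0.27 (SE 0.22, limma adjusted p = 0.642) with all libraries and 0.46 (SE 0.14, adjusted p = 0.144) without S205 and SP9, and neither passed the threshold of 0.05. Relative to the median of the members in the same library, RPE lay at 0.05 to 0.34 on the log2 scale in cross B and at -0.33 to -0.05 in cross A. The crosses overlapped in this measure in every other member, and it was not computed for all loci.

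CP12 proteins are small linkers that hold glyceraldehyde-3-phosphate dehydrogenase and phosphoribulokinase in an inactive complex in the dark. CP12-1 (AT2G47400) had 841 and 748 CPM in resistant lines of cross B, against 952, 913, 1103 and 935 CPM in its susceptible lines. In cross A it had 461, 815 and 623 CPM in resistant lines, against 1302, 826 and 635 CPM in susceptible lines. R202 was lowest and S205 highest, and the phenotypes were apart in cross B but overlapped in cross A. CP12-1 was the only member with an unadjusted limma p under 0.05 in resistant against susceptible lines (log2 difference -0.41, SE 0.19, adjusted p = 0.587), and the difference was -0.23 without S205 and SP9. CP12-2 was the most variable member, with an SD of 0.63 on the log2 scale over 12 libraries, 1550 CPM in S205 and 1048 CPM in SP9, against 345 to 741 CPM in the other 10.

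In photorespiration, PGLP1 removes the phosphate from phosphoglycolate, and in the peroxisome the glycolate oxidases GOX1 and GOX2, the catalase CAT2 and the aminotransferases GGT1 and AGT1 turn glycolate into glycine. GOX2 was the major oxidase, with a median of 1021 CPM per kb against 102 CPM per kb for GOX1, the lowest of all members. GOX2 (AT3G14415) had 1756 and 1398 CPM in resistant lines of cross B, against 1775, 1582, 2486 and 1960 CPM in its susceptible lines. In cross A it had 1273, 1635 and 1951 CPM in resistant lines, against 4260, 2180 and 1487 CPM in susceptible lines. The phenotypes overlapped in both crosses.

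GOX1 (AT3G14420) had the lowest difference of all members between the crosses. It had 174 and 129 CPM in resistant and 163, 130, 274 and 161 CPM in susceptible lines of cross B, against 116 CPM in R202 and 164 CPM in R206 (resistant) and 519, 233 and 148 CPM in susceptible lines of cross A. The third resistant line of cross A, R221, lay between R206 and S207. The log2 difference, cross B over cross A, was -0.37 (SE 0.30, limma adjusted p = 0.627), and -0.19 without S205 and SP9. Excess in S205 was large for GOX1 (3.16 times the median of the other cross A lines) and for AGT1, the serine:glyoxylate aminotransferase (3.25 times, 3211 CPM).

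CAT2 (AT4G35090) breaks down the hydrogen peroxide made by glycolate oxidase. It had 598 and 608 CPM in resistant lines of cross B, against 783, 670, 1070 and 674 CPM in its susceptible lines. In cross A it had 403, 614 and 688 CPM in resistant lines, against 1111, 627 and 553 CPM in susceptible lines. S205 and SP9 were close to each other here, and CAT2 had the smallest S205 excess in photorespiration (1.81) beside an SP9 excess of 1.60. GGT1 (AT1G23310), the glutamate:glyoxylate aminotransferase, had 670 and 539 CPM in resistant and 611, 560, 907 and 617 CPM in susceptible lines of cross B, against 585, 652 and 661 CPM in resistant and 1373, 720 and 525 CPM in susceptible lines of cross A. Without S205 and SP9 the GGT1 values lay within a factor of 1.37.

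In the mitochondrion, glycine decarboxylase, built of P (GLDP1, GLDP2), T (GLDT) and H (GLDH1, GLDH3) proteins with a shared L protein, works with the serine hydroxymethyltransferase SHM1 to turn glycine into serine. HPR1 in the peroxisome and GLYK in the chloroplast then return the carbon as glycerate and phosphoglycerate. GLDH3 led this group per kilobase (1010 CPM per kb), and GLDP2 (114) and GLYK (133 CPM per kb) were lowest. The 2 H protein loci differed in how far S205 stood out. GLDH1 (AT2G35370) had 484 and 374 CPM in resistant lines of cross B, against 459, 497, 692 and 576 CPM in its susceptible lines, and 325, 413 and 368 CPM in resistant lines of cross A, against 1199, 515 and 318 CPM in its susceptible lines. GLDH3 (AT1G32470) had 856 and 813 CPM in resistant lines of cross B, against 888, 953, 1121 and 1002 CPM in its susceptible lines, and 717, 950 and 746 CPM in resistant lines of cross A, against 1525, 990 and 760 CPM in its susceptible lines. S205 was 3.26 times the median of the other cross A lines for GLDH1, the highest ratio of all members, and 2.01 times for GLDH3.

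HPR1 (AT1G68010), the hydroxypyruvate reductase, had 718 and 602 CPM in resistant and 626, 507, 1057 and 629 CPM in susceptible lines of cross B, against 472, 822 and 724 CPM in resistant and 1913, 823 and 568 CPM in susceptible lines of cross A. The crosses overlapped throughout, and the log2 difference of -0.30 (SE 0.30, limma adjusted p = 0.702) became -0.11 without S205 and SP9. GLDP1, GLDT and SHM1 averaged 2915 ± 459, 1342 ± 182 and 1542 ± 204 CPM in resistant lines (SD, n = 5), against 3545 ± 1543, 1825 ± 732 and 2157 ± 954 CPM in susceptible lines (SD, n = 7). Of the 14 photorespiration members, none had groups that did not overlap over both crosses, a separation that 0.293% of all loci had with resistant lines lower.

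Resistant against susceptible is the contrast of the study's herbicide phenotype, tested with cross as a covariate. All 32 members had a negative log2 difference, ranging from -0.53 (AGT1) to -0.20 (TKL1 and RPI3) with a median of -0.36, while 51.5% of all loci were negative with a median of -0.01. None passed the threshold: 0 of 32 members and 0 of 16051 loci (0%) had a limma adjusted p under 0.05, and edgeR also called 0 loci (0%). DESeq2 called 20 loci (0.125%), none of them a member. At an unadjusted p under 0.05 there was 1 member, CP12-1, against 8.22% of all loci. The 5 members with the next smallest p were GLDH3 (log2 difference -0.32, SE 0.16), GLDH1 (-0.52, SE 0.27), CAT2 (-0.39, SE 0.20), GOX2 (-0.45, SE 0.24) and RBCS3B (-0.47, SE 0.26), with limma adjusted p between 0.587 and 0.589. Members vary together in these libraries, so 32 like signs are not 32 separate observations.

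These differences were smaller without S205 and SP9, which are both susceptible. The pair was chosen as the 2 highest libraries of the members, so leaving it out raises the difference within each cross by construction. This change is therefore a description and not a test. Without the pair the median of the members was -0.09, 28 of the 32 were negative, and the range was -0.24 to 0.09. Limma again called 0 members and 0 loci, with 0 members at an unadjusted p under 0.05, against 5.27% of all loci. The 2 Rubisco small subunits had the lowest values, -0.24 each with an SE of 0.18, and GLDP1 (0.09), SBPase (0.07), HPR1 (0.05) and GGT1 (0.03) were positive. The 95% intervals of the 32 members with all libraries lay between -1.25 and 0.36, and they included 0 in every member except CP12-1 (-0.82 to -0.01).

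**Figure D4:**
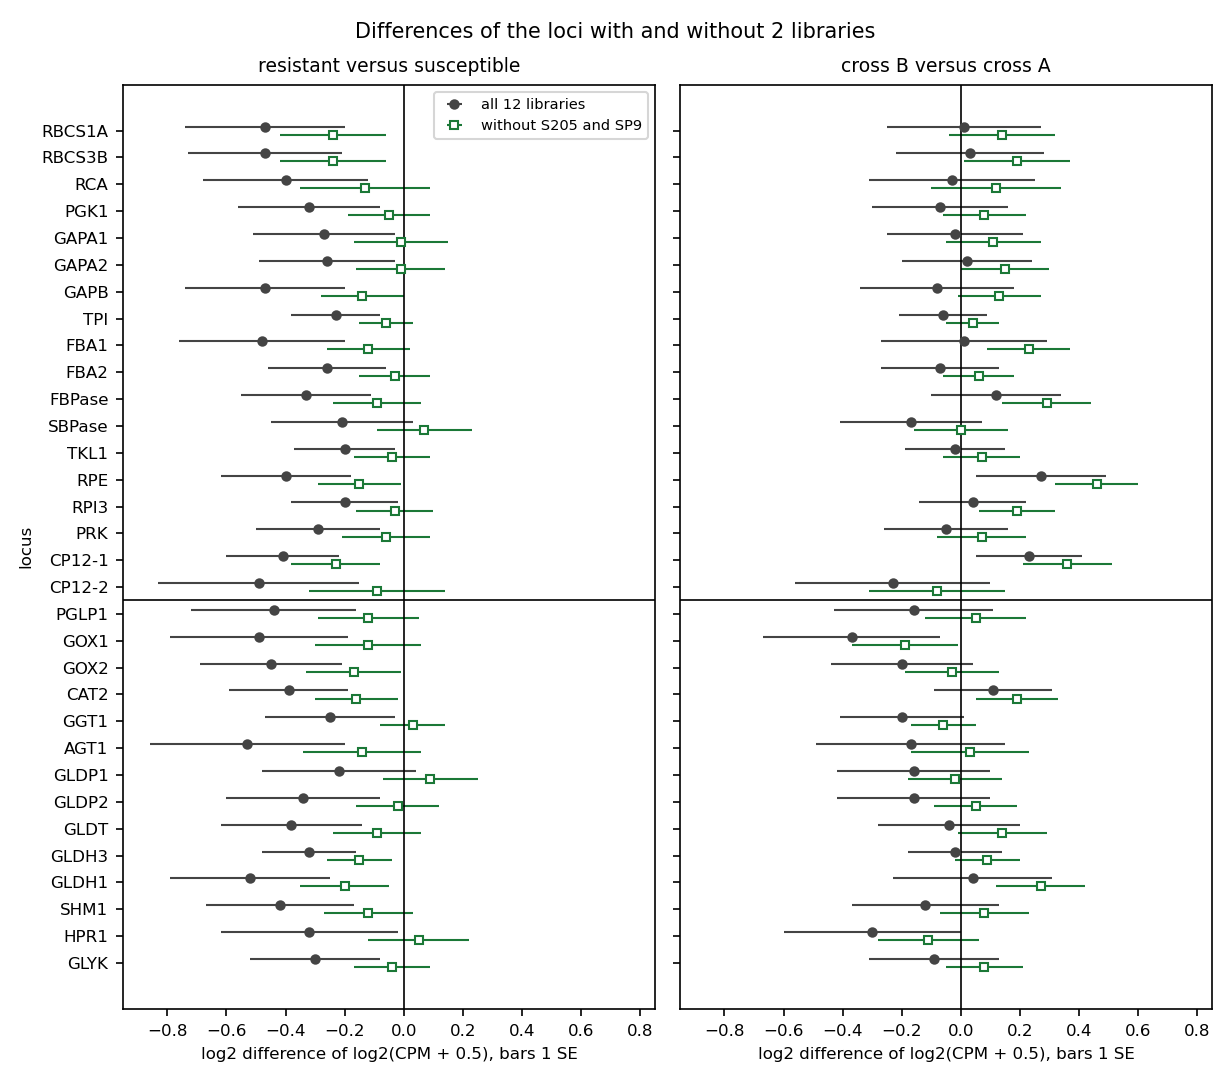
Log2 difference of log2(CPM + 0.5) for each locus (rows), resistant over susceptible on the left and cross B over cross A on the right, with bars of 1 SE, for all 12 libraries (filled) and without S205 and SP9 (open). On the left all 32 filled points are negative with a median of -0.36, and the open points have a median of -0.09.

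Within cross A, all 32 members had a negative difference (median -0.47, range -0.78 to -0.19), against 50.2% of all loci. Within cross B 31 of 32 did (median -0.23, range -0.43 to 0.06), against 52.8% of all loci. In cross A limma called 0 members and 0 of 16051 loci (0%), and in cross B it called 0 members and 4 loci (0.0249%). At an unadjusted p under 0.05 there was no member in either cross, against 5.16% of all loci in cross A and 4.4% in cross B. DESeq2 called 9 loci in cross A (0.0562%) and 66 in cross B (0.412%), and edgeR 0 and 4, with no member among them. The difference between the crosses in this contrast had a median of 0.24 over the members, with 31 of 32 positive, while 51.5% of all loci were negative. It was called in 0 members and 0 loci (0%) by limma and edgeR and in 16 loci (0.0999%) by DESeq2, and at an unadjusted p under 0.05 there were 0 members, against 3.1% of all loci. That median was -0.02 without S205 and SP9, where the within-cross medians were -0.08 in cross A and -0.10 in cross B. Of the 32 members, 6 had both resistant lines of cross B below all 4 of its susceptible lines, namely RBCS1A, RBCS3B, RPE, CP12-1, CAT2 and GLDH3, against 10.5% of all loci. None had this separation in cross A, where 4.22% of all loci did.

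Cross B against cross A was tested with phenotype as a covariate. Direction was mixed, with 22 of the 32 members negative and 10 positive (48% of all loci were negative). The median was -0.06 and the range -0.37 (GOX1) to 0.27 (RPE), and the balance turned without S205 and SP9, as given below. With edgeR 28 were negative (median -0.12), and on plain CPM 23 (median -0.07). Limma called 0 of 32 members and 200 of 16051 loci (1.25%), edgeR 156 loci (0.972%) and DESeq2 772 of 16013 (4.82%), and neither of the last 2 called a member. No member had an unadjusted p under 0.05, against 13.6% of all loci. The 6 members with the smallest p were CP12-1 (0.23, SE 0.18), GOX1, RPE, HPR1, GGT1 (-0.20, SE 0.21) and GOX2 (-0.20, SE 0.24), with limma adjusted p between 0.62 and 0.767. By cycle, 8 of 18 Calvin cycle members and 2 of 14 photorespiration members were positive, with medians of -0.02 and -0.16.

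Without S205 and SP9 the median over the members was 0.08 and 25 of the 32 were positive, 16 of 18 in the Calvin cycle (median 0.13) and 9 of 14 in photorespiration (median 0.05). RPE and CP12-1 (log2 difference 0.36, SE 0.15, limma adjusted p = 0.25) then had an unadjusted p under 0.05, 2 of 32 members against 17.2% of all loci, and limma called 0 members against 1.05% of loci. Among susceptible lines alone, cross B over cross A had a median of -0.15 over the members with 28 of 32 negative (48.3% of all loci), and limma called 0 members and 75 loci (0.467%). The direction turned without S205 and SP9, which are both susceptible, to a median of 0.13 with 24 of 32 positive, 0 members called and 1 at an unadjusted p under 0.05, against 18.2% of all loci. Among resistant lines, which include neither library, the median was 0.08 with 9 of 32 negative (47.6% of all loci), and limma called 0 members and 13 loci (0.081%). FBA1 and RPE were higher in both resistant lines of cross B than in all 3 of cross A, 2 of 32 members against 10.9% of all loci. No member had an unadjusted p under 0.05 in either of these contrasts, against 13.2% and 3.98% of all loci, in the order susceptible and resistant lines. In that order edgeR called 0.505% and 0.0872% of all loci and DESeq2 4.63% and 0.705%, and neither tool called a member.

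Ratios of related members within a library remove only a shift of the same size in both. There were 8 such ratios, each tested for both labels, and none of the 16 exact two-sided permutation tests passed after Benjamini-Hochberg adjustment. S205 and SP9 still lay above the other 10 libraries in FBA1 over FBA2 (0.262 and 0.227, against at most 0.202). They did so too in GLDH1 over GLDH3 (0.786 and 0.617, against at most 0.575). The same held for GOX1 over GOX2 (0.122 and 0.11, against at most 0.107). In CP12-1 over CP12-2 both lay below the other 10 (0.84 and 1.05). In the other ratios SP9 lay inside their range, as did S205 in RBCS1A over RBCS3B and GAPA1 over GAPA2. GAPA1 plus GAPA2 over GAPB, the balance of the 2 kinds of dehydrogenase subunit, had the smallest p. The ratio was 3.46 and 3.22 in resistant lines of cross B, against 2.97, 2.79, 2.95 and 2.88 in its susceptible lines, and 3.17, 3.24 and 3.05 in resistant lines of cross A, against 2.23, 3.07 and 3.01 in its susceptible lines. S207 alone (3.07) passed a resistant line (R221, 3.05), and S205 was lowest. It averaged 3.23 ± 0.149 in resistant lines (SD, n = 5) and 2.84 ± 0.284 in susceptible lines (SD, n = 7), a log2 difference of 0.20 whose exact permutation p was 0.00667 (adjusted p = 0.107). Without S205 and SP9 this difference was 0.13 (exact permutation, adjusted p = 0.16). CP12-1 over CP12-2 averaged 1.66 ± 0.382 in cross B and 1.21 ± 0.237 in cross A (SD, n = 6 each), a log2 difference of 0.46 whose exact permutation p was 0.0514 (adjusted p = 0.377), and 0.45 without S205 and SP9. GLDP1 over GLDP2 varied little, at 8.69 to 11.1, and GAPA1 over GAPA2 ranged between 0.421 and 0.493.

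The 69 contigs came from 2 assemblies, marked R and S in their names, and 17 members had contigs of both. S205 was highest in 59 of the 69 contigs, against 22.0% of all contigs, and 4 of the 13 contigs with a mean under 10 CPM showed this, against 55 of the other 56. The share of a locus held by its R-assembly contigs moved by less than 5 points over the 12 libraries in 13 of the 17. HPR1 was the widest, at 63.6% in R206 and 51.2% in R202 and between 38.5% and 43.3% in the other 10 libraries. CAT2 followed, with the share of its R-assembly contig at 13.0% (RP6) to 37.3% (S205). On that contig S205 was highest (415 CPM) and R202 lowest (64.1 CPM), while on the S-assembly contig SP9 (868 CPM) lay above S205 (696 CPM). Contigs of 1 locus can share reads, so their split is uncertain.

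**Figure D5:**
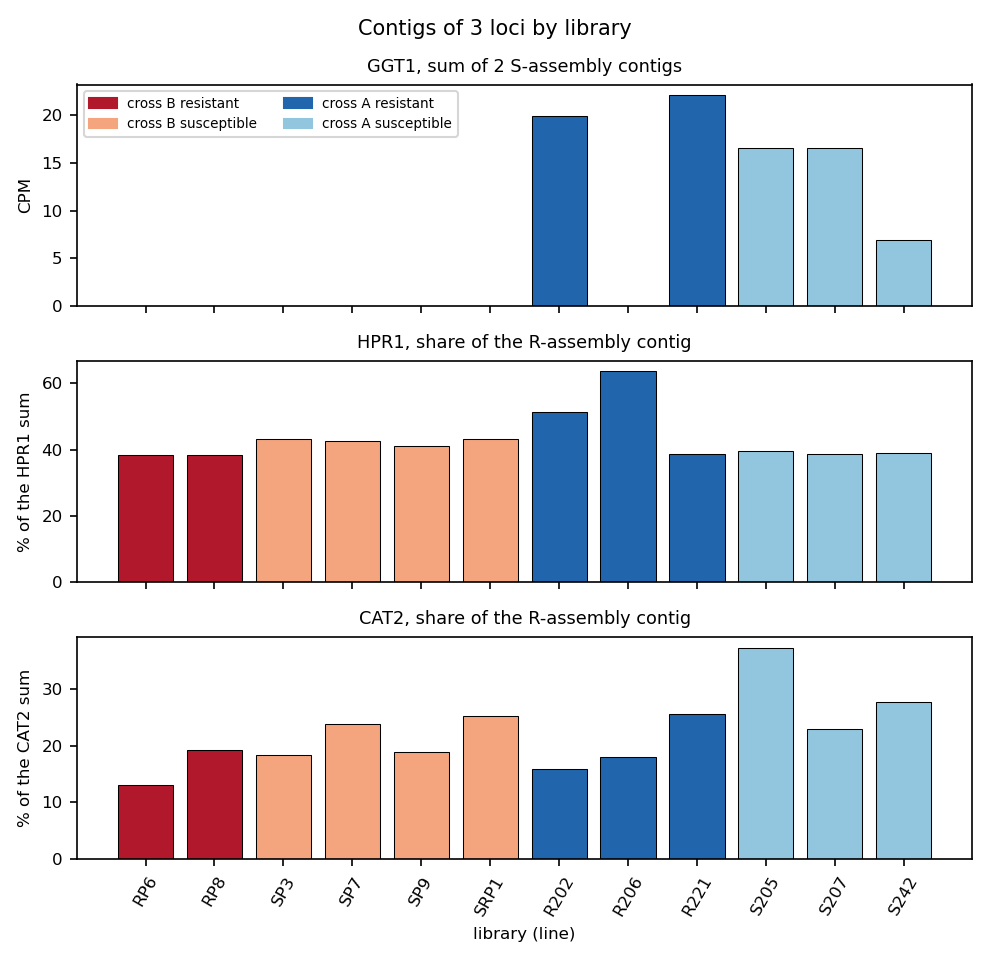
Summed CPM of 2 S-assembly contigs of GGT1 (top), and the share of the R-assembly contig in the locus sum, in percent, for HPR1 (middle) and CAT2 (bottom), with 1 bar per library and colours for the 4 groups. The GGT1 contigs reach 6.92 to 22.1 CPM in 5 libraries of cross A and are not visible in the other 7.

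GGT1 had 2 low contigs, of 5 in all, that were close to all or none. Together they had 19.9 CPM in R202 and 22.1 CPM in R221, 16.6 CPM each in S205 and S207, and 6.92 CPM in S242. In R206 and in all 6 lines of cross B they had 0.0146 to 0.0523 CPM, which is 2 to 8 reads. They made up at most 3.4% of the GGT1 sum, so they bear little on its level. This split did not follow phenotype, since both resistant (R202, R221) and susceptible (S205, S207, S242) lines had the contigs. It went with cross except for R206, a resistant line of cross A.

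The authors' deposited table of resistant against susceptible contigs lists 277 contigs, and 1 of them belongs to a member. It is an S-assembly contig of RBCS3B of 669 bases, with a log2 fold change of -1.12, a p of 0.0218 and an FDR of 1 in the authors' deposited table. The contig held 2.36% of the mean of its locus. Its values reached 359 CPM in resistant lines. In susceptible lines they reached 1280 CPM in S205, followed by 596 CPM in SP9, and the groups overlapped.

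The wider pathway was described by 71 further loci in 6 lists, of which 67 were tested. In cross B against cross A, 1 of the 67 was called, a share near the 1.25% of all loci called. It was GAPC2, a cytosolic glyceraldehyde-3-phosphate dehydrogenase of glycolysis. GAPC2 was low, at 6.27 and 6.85 CPM in resistant and 7.44, 6.47, 8.49 and 5.83 CPM in susceptible lines of cross B, against 3.36, 2.51 and 5.95 CPM in resistant and 2.78, 4.05 and 2.59 CPM in susceptible lines of cross A. R221 (5.95 CPM) lay above SRP1 (5.83 CPM), the only overlap. The log2 difference was 0.93 (SE 0.19, limma adjusted p = 0.0373). The call was lost without S205 and SP9 (difference 0.83, limma adjusted p = 0.0874), with edgeR (0.97, adjusted p = 0.0666), on plain CPM (0.92, adjusted p = 0.0582) and with only the highest contig of the locus (0.87, adjusted p = 0.0552). It was also lost when any library other than R206 or R221 was left out, with differences of 0.85 to 1.0 and limma adjusted p of 0.06 to 0.103. It was kept with DESeq2 (0.98, adjusted p = 0.00152), both other pseudocounts, both other filters, median ratio scaling, S assembly contigs alone and no covariate. Its close paralogue GAPC1 lay between 1383 and 2250 CPM in the 12 libraries, with a difference of 0.06 (SE 0.13), and reads of the pair may be split unevenly. The median over the 67 was -0.04, with 28 positive and 39 negative.

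In resistant against susceptible lines, limma called 0 of the 67, 51 were negative, and their median was -0.13, which became -0.02 without S205 and SP9. The 8 loci for carbon supply and triose export, which include the carbonic anhydrases and the triose phosphate translocator TPT, were all negative (median -0.28), with the carbonic anhydrase BCA1 lowest (-0.55) and BCA5 at -0.00. Without S205 and SP9 the median of these 8 was -0.02, with 3 positive. The 10 loci for thioredoxin light regulation were all negative too (median -0.28, range -0.51 to -0.03), and without S205 and SP9 their median was -0.09 (range -0.25 to -0.02). The 12 loci for Rubisco assembly and chaperonins had a median of -0.09, the 12 for photorespiratory transport and ammonia refixation -0.15, the 10 other photorespiration isoforms -0.16, and the 15 other Calvin cycle and glycolytic isoforms 0.08. Without S205 and SP9 these 4 medians were -0.02, 0.02, -0.03 and 0.06 in the same order. In the last list, 2 loci had the smallest p of the 67. FBA3, a plastid aldolase, had 82.6 and 84.5 CPM in resistant and 66.9, 84.2, 72.6 and 59.7 CPM in susceptible lines of cross B, against 112, 76.0 and 82.8 CPM in resistant and 63.1, 50.5 and 66.9 CPM in susceptible lines of cross A. Its log2 difference was 0.42 (SE 0.13, limma adjusted p = 0.587), or 0.44 without S205 and SP9, and SP7 (84.2 CPM) was the only susceptible line inside the resistant range. GAPCP1, a plastid glycolytic dehydrogenase, had a difference of 0.54 (SE 0.22, limma adjusted p = 0.587), or 0.36 without S205 and SP9, at 13.1 to 26.3 CPM in resistant lines and 7.25 to 19.8 CPM in susceptible lines, which overlapped. Both lie in the direction opposite to the members' and neither passed the test.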

How the data were processed

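Leaf RNA-seq values of 12 lines were taken from the deposited table of 33277 contigs from an R and an S assembly. The submitters' processing notes name Bowtie2, SAMtools 1.3.1, edgeR, R 3.3 and TAIR10, with no role or order, and other steps were not stated in the sources used. The deposited values are a signal, CPM on library sizes scaled by the authors. The authors' deposited comparison table adds a log2 fold change, a p-value and an FDR per contig. The design assumed CPM, and the log2 test was kept.

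Whole reads were recovered within 0.1 read for at least 99.99% of values, and 3 reads correspond to 0.0196 to 0.0299 CPM, a limit for counting error only. Contigs were summed per Arabidopsis locus, and loci with at least 1 CPM in 5 libraries were tested as log2(CPM + 0.5) with limma 3.58.1 (R 4.3.3), Benjamini-Hochberg adjustment over 16051 loci and a threshold of 0.05. Phenotype was tested with cross as covariate and cross with phenotype, and 1 model with 4 groups gave the within-group contrasts. For low loci the pseudocount makes a log2 difference smaller than the true one. EdgeR 4.0.16 and DESeq2 1.42.0 on recovered reads were alternatives, and 0 sample columns were left out. Figures used matplotlib 3.10.9. Scripts were tested on simulated data. Values in every library are given for the 6 members with the smallest p in each of the 2 main contrasts, and for pathway loci called or, with none called, the 2 with the smallest p. Other members are given as values chosen after they were seen. The members, lists and the left-out pair S205 and SP9 were chosen with earlier results of these data known. Plain CPM and the settings tried for GAPC2 were added after seeing the data.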

Additional observations from a re-analysis of the deposited data

Results flagged for a closer look

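GGT1 in line SP9, at 907 CPM, lay far from the other susceptible lines of cross B, which had 611, 560 and 617 CPM. Its gap to the nearest of them was large against the range of these 4 libraries. Each of the 32 members was examined in this way in this group, the only 1 with 4 libraries, and chance marks about 1 in 20. Members vary together, and SP9 was the second highest of all libraries in all 32. Its GGT1 value was 1.49 times the median of the other cross B lines, near the members' median ratio of 1.43.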

How the results depend on the processing

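The number of members called was 0 in all 7 comparisons under every setting tried. The settings were pseudocounts of 0.1 and 2, no filter and a filter of 5 CPM, median ratio scaling, plain CPM, the highest contig per locus, contigs of 1 assembly, edgeR, DESeq2, each library left out, S205 and SP9 left out together and, in the 2 main contrasts, no covariate. The number of paralogue ratios that passed was 0 under median ratio scaling, the highest contig, contigs of 1 assembly (where not all ratios had a value), each library left out and S205 and SP9 left out together. The resistant over susceptible differences remained negative in all 32 members with edgeR (median -0.42), median ratio scaling (-0.35) and plain CPM (-0.27, where the median of all loci was 0.08). Signs changed under some settings, also in members with differences as large as those of HPR1 (-0.32) and PGLP1 (-0.44) in resistant over susceptible, and the cause was not tested. The change in PGLP1 was seen with contigs of the R assembly, which held 0.277% to 1.52% of its sum over the 12 libraries. Each line has 1 library, so differences between lines and between leaf samples cannot be told apart, and members with 1 contig rest on that contig.

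Without S205 and SP9, resistant over susceptible became 0.07 in SBPase, 0.03 in GGT1, 0.09 in GLDP1 and 0.05 in HPR1. Cross B over cross A became 0.12 in RCA, 0.08 in PGK1, 0.11 in GAPA1, 0.13 in GAPB, 0.04 in TPI, 0.06 in FBA2, 0.07 in TKL1 and PRK, 0.05 in PGLP1 and GLDP2, 0.03 in AGT1, 0.14 in GLDT, 0.09 in GLDH3, and 0.08 in SHM1 and GLYK. Among log2 ratios, resistant over susceptible became -0.00 for RBCS1A over RBCS3B, 0.00 for GAPA1 over GAPA2, -0.14 for CP12-1 over CP12-2 and 0.05 for GOX1 over GOX2, and cross B over cross A became -0.07 for GLDP1 over GLDP2.

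Other settings reversed cross B over cross A as follows. Both edgeR and DESeq2 gave -0.05 in RBCS1A, -0.04 in RBCS3B and GAPA2, -0.09 in FBA1 and GLDH1, and -0.02 in RPI3. Median ratio scaling, plain CPM and the highest contig each gave -0.00 in RBCS1A. No covariate gave 0.03 in RCA and GLDH3, 0.02 in GAPA1 and GLDT, 0.01 in TKL1, and 0.00 in GAPB and PRK. Contigs of the R assembly gave 0.03 in PGK1, -0.05 in FBPase and -0.26 in CAT2, and those of the S assembly -0.04 in RBCS3B and 0.05 for the log2 ratio of RBCS1A over RBCS3B. The R contigs held 0.0521% to 0.109% of the PGK1 sum and 0.333% to 0.631% of the FBPase sum. Their share was 13.0% to 37.3% in CAT2 and 95.6% to 98.8% in RBCS3B. The highest contig gave -0.01 for GLDP1 over GLDP2. In resistant over susceptible, R assembly contigs gave 0.06 in PGLP1 and -0.00 for RBCS1A over RBCS3B, for which the highest contig gave -0.01.

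Leaving out 1 library at a time moved resistant over susceptible in SBPase between -0.35 and 0.00. It moved cross B over cross A across 0 in RBCS1A (-0.13 to 0.20), RBCS3B (-0.14 to 0.23), RCA (-0.18 to 0.19), PGK1 (-0.25 to 0.15), GAPA1 (-0.18 to 0.19), GAPA2 (-0.15 to 0.22), GAPB (-0.28 to 0.20), TPI (-0.16 to 0.08), FBA1 (-0.14 to 0.31) and FBA2 (-0.19 to 0.12). It did the same in FBPase (-0.05 to 0.34), SBPase (-0.32 to 0.06), TKL1 (-0.15 to 0.11), RPI3 (-0.10 to 0.21), PRK (-0.21 to 0.14), CP12-2 (-0.45 to 0.06), PGLP1 (-0.35 to 0.12), GOX2 (-0.36 to 0.04) and GGT1 (-0.34 to 0.02). In photorespiration it also did so in AGT1 (-0.38 to 0.15), GLDP1 (-0.32 to 0.08), GLDP2 (-0.35 to 0.12), GLDT (-0.23 to 0.20), GLDH3 (-0.14 to 0.13), GLDH1 (-0.17 to 0.33), SHM1 (-0.31 to 0.14) and GLYK (-0.27 to 0.14). Among log2 ratios, cross B over cross A spanned 0 for RBCS1A over RBCS3B (-0.04 to 0.01), GLDP1 over GLDP2 (-0.04 to 0.04) and GLDH1 over GLDH3 (-0.04 to 0.20). Resistant over susceptible spanned 0 for RBCS1A over RBCS3B (-0.02 to 0.03), GAPA1 over GAPA2 (-0.03 to 0.02), CP12-1 over CP12-2 (-0.04 to 0.17) and GOX1 over GOX2 (-0.08 to 0.01).

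No paired analysis was possible because the labels give the lines no replicate numbers shared between groups. EdgeR and DESeq2 were not run on the ratios, and loci with no R contig, GAPC2 among them, gave no value with R contigs alone.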
